A study of Mus musculus with 3 samples.

Results

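The crypt cells described here are 1140 of the 6363 epithelial cells in the single-cell library of the small intestine at postnatal day 7 (P7), or 17.9% (17.0 to 18.9%, exact Clopper-Pearson interval). They were selected on measured values: counts of unique molecular identifiers (UMIs), the tags that mark single captured RNA molecules. A cell had to hold at least 3 UMIs of Epcam, the surface protein of epithelial cells, at least 10 of Olfm4 and at least 1 of Lgr5. Apoa4, Rbp2 and Fabp2 together had to stay under 2% of its UMIs, Muc2 under 5, Chga and Chgb together under 5, and Defa30 under 10. Of 1251 epithelial cells that met the 3 minimums, these limits took out 35 for absorptive genes, 59 for Muc2, 21 for Chga and Chgb and 24 for Defa30, some of them for more than 1. The P7 library holds 8391 cells and the whole series 28436 cells.

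All animals were wild-type, untreated mice, and each stage, the embryonic days E15.5 and E17.5 and P7, is 1 Chromium 3′ v2 droplet library of the whole small intestine. The labels' protocols describe joining the epithelial and the mesenchymal fraction, and sorting viable cells that were positive for Epcam or negative for Epcam, CD31 and CD45, so that the sort sets the share of epithelial cells. How many animals a library pools is not given in the sources used, nor are strain and sex. There are no replicates, and the cells of 1 library are not replicates, so no p-value was computed and every value is a description of these libraries. All brackets are 95% intervals that cover counting error only.

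Crypts are pockets of the epithelium between the villi, and at their base stem cells divide to renew the lining. Lgr5 encodes a receptor for R-spondins, secreted proteins that strengthen WNT signalling, and marks these stem cells in the mouse. Olfm4 encodes a secreted glycoprotein, olfactomedin 4, of the same cells, and its transcription depends on Notch signalling. Ascl2 is a transcription factor that is switched on by WNT signalling and needed for the stem cell state, and Axin2 is a WNT target that dampens the pathway in return. In the mouse, crypts form from the pockets between villi in the first weeks after birth.

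The genes that define the cells lie on different chromosomes of GRCm38: Lgr5 on chromosome 10 at 115450314 to 115587780, Olfm4 on chromosome 14 at 80000302 to 80023141, Ascl2 on chromosome 7 at 142966822 to 142969264 and Axin2 on chromosome 11 at 108917828 to 108950783. The 250 bases before the RefSeq start site (GRCm38.p6) are shown for Olfm4, Ascl2 and Sp5, a WNT-induced transcription factor that had the highest ratio of all listed crypt genes below. They were searched on both strands for the TCF/LEF core CTTTGA, through which WNT signalling acts, and the RBPJ core TGGGAA, through which Notch signalling acts, and matches are in capitals. No promoter sequence of Lgr5 was matched.
Olfm4, chr14:80000052-80000301, plus strand: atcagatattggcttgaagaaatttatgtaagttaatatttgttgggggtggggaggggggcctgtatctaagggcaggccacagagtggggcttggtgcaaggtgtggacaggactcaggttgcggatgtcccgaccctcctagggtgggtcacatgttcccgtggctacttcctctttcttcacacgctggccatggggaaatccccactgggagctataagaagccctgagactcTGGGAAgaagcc
Ascl2, chr7:142969265-142969514, minus strand: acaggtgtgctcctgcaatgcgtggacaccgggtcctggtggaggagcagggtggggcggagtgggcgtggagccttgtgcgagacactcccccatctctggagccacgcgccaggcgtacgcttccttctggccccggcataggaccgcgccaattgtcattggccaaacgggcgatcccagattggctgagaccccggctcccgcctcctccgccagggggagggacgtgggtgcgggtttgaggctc
Sp5, chr2:70474673-70474922, plus strand: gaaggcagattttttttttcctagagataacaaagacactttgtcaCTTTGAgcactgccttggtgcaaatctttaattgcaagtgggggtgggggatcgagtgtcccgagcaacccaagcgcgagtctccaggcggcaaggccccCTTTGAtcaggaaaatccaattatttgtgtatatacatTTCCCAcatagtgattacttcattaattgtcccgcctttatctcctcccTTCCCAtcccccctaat
The Olfm4 window holds 1 RBPJ core, close to the start site, and 0 TCF/LEF cores. The Sp5 window holds 2 cores of each kind. The Ascl2 window holds 0 of either, which says only that these letters are not in this window. The same search found 0 cores of either kind in the windows of Axin2, Notch1 and both start sites of Rnf43, which are not shown. Such short cores are common: 14.05% of 27025 windows of this length hold the TCF/LEF core and 21.5% hold the RBPJ core. Among the windows of 738 genes at least 2-fold higher in crypt cells than in the other P7 epithelial cells, 10.3% hold the TCF/LEF core and 20.1% the RBPJ core, against 10.9% and 19.5% among the windows of 6541 genes counted.

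The crypt cells held 19517214 UMIs, with a lowest, median and highest depth of 3047, 15024 and 53931 UMIs per cell. The other 5223 P7 epithelial cells held 85785832 UMIs, with a median of 16126 per cell. Among those others are the nearest cells outside the rule, 2197 cells with a median of 15414 UMIs that met every limit except those on Olfm4 and Lgr5. Olfm4 stood at 10, 58 and 240 UMIs per crypt cell (lowest, median, highest) and Lgr5 at 1, 3 and 20 UMIs. Most crypt cells therefore lay well inside the Olfm4 limit, while 265 of them held a single Lgr5 UMI. Levels are in CPM: a gene's UMIs over all cells of a group, per 1000000 of that group's UMIs. Just inside the Olfm4 limit, 56 crypt cells with 10 to 14 UMIs had Ascl2 at 50.1 CPM and Axin2 at 88.6 CPM. Just outside it, 67 cells with 5 to 9 Olfm4 UMIs and at least 1 Lgr5 UMI had 52.5 and 83.0 CPM. At the Lgr5 limit, the 265 cells with 1 UMI had Ascl2 at 73.1 CPM, and the 403 cells with 0 UMIs that met all else had 40.0 CPM. Smoc2 stood at 73.8 CPM in the cells with 1 Lgr5 UMI and 61.0 CPM in those with 0, and Slc12a2 at 562 and 439 CPM.

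Ascl2 and Axin2, which the rule did not read, were checked first, since they mark the same cells. Ascl2 stood at 89.6 CPM (85.5 to 93.9) in crypt cells, against 12.9 CPM in the nearest cells outside the rule and 7.85 CPM in all other P7 epithelial cells. Axin2 stood at 108 CPM (103 to 113) in crypt cells, against 23.4 and 17.0 CPM. With every cell thinned to 5000 UMIs, which left out 3 crypt cells and 193 others, Ascl2 was seen in 32.3% (29.6 to 35.1%) of crypt cells and 3.38% (2.90 to 3.92%) of the others, and without thinning in 65.3% and 7.72%. Fibroblasts of the same library, which should lack the gene, showed Ascl2 in 0.27% of 371 thinned cells, with 538 left out by thinning. The part of free RNA in the Ascl2 values was not tested. Free RNA is RNA of broken cells that droplets take up. The fibroblasts were 909 cells with 0 Epcam UMIs and at least 20 UMIs of Col1a1, Col3a1 and Dcn, at a median of 4670 UMIs each.

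Markers of other cell types were summed in the crypt cells. The 7 absorptive markers, 3 of which the rule limits, summed to 1770 CPM in crypt cells, 45949 CPM in the other P7 epithelial cells and 941 CPM in fibroblasts, and 872 crypt cells (76.5%) held 10 or more of their UMIs. Goblet markers summed to 341, 7598 and 176 CPM in the same order, Paneth markers to 151, 4715 and 110 CPM and endocrine markers to 38.4, 1683 and 40.5 CPM, with 10 or more UMIs in 52, 20 and 8 crypt cells. The rule also limits Muc2, Defa30, and Chga and Chgb, which are among these markers, and the cells it leaves out count among the others. These sums were far under those of the other epithelial cells, which the selection in part sets. Their part in the results below was not tested. The 6 fibroblast markers summed to 128 CPM in crypt cells, 217 CPM in the other P7 epithelial cells and 34491 CPM in the fibroblasts, and 21 crypt cells held 10 or more of their UMIs. The 5 smooth muscle markers summed to 146 CPM in crypt cells and 112 CPM in the others, and 14 crypt cells held 10 or more of their UMIs. Immune markers summed to 3.38 and 1.66 CPM and endothelial markers to 0.67 and 0.75 CPM, with 2 of 5 and 2 of 4 markers at 0 UMIs in crypt cells. Of the 6 markers of tuft cells, 2 were at 0 UMIs in crypt cells, and the sum was 2.31 and 2.90 CPM. Haemoglobin genes of red cells summed to 16.3 CPM in crypt cells and 474 CPM in the other P7 epithelial cells, where 23 cells held 10 or more of their UMIs. Ribosomal protein genes took 29.7% of the UMIs in crypt cells and 15.3% in the others, and mitochondrial genes 6.60% and 8.47%. Scrublet, a doublet caller, marked 48 crypt cells (4.21%) and 325 other cells (6.22%), and they were kept here.

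Against the other P7 epithelial cells, a gene was counted where the mean of both groups was at least 10 CPM, which 8137 genes met. Of these, 931 (11.4%) were at least 2-fold higher in crypt cells and 1281 (15.7%) at least 2-fold lower, with a median log2 ratio of 0.01. Against the nearest cells outside the rule, 8123 genes were counted, of which 305 (3.75%) were at least 2-fold higher and 970 (11.9%) at least 2-fold lower, with a median of -0.05. Since the rule reads genes of these same cells, both counts are descriptions, and the counts of the gene lists below are read beside them. Genes that the rule read are left out of the lists.

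The 15 genes with the highest ratios were led by genes known from the crypt base. Gkn3, a gastrokine, stood at 77.1 CPM in crypt cells, 12.6 CPM in the nearest cells and 7.58 CPM in all others. Smoc2, a secreted matrix protein of stem cells, stood at 116, 21.8 and 15.2 CPM, but fibroblasts also held it at 110 CPM. Clca3b, of the chloride channel accessory family, stood at 214, 46.8 and 26.3 CPM, and Cdca7, a Myc target that binds chromatin, at 241, 55.5 and 31.8 CPM. Rgcc, a regulator of the cell cycle, stood at 152, 22.4 and 16.2 CPM. Igfbp4, which binds insulin-like growth factors, stood at 98.2, 18.6 and 14.6 CPM. These 6 genes were 6.73 to 10.2-fold higher in crypt cells than in all other P7 epithelial cells, and Ascl2 11.4-fold.

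**Figure D1:**
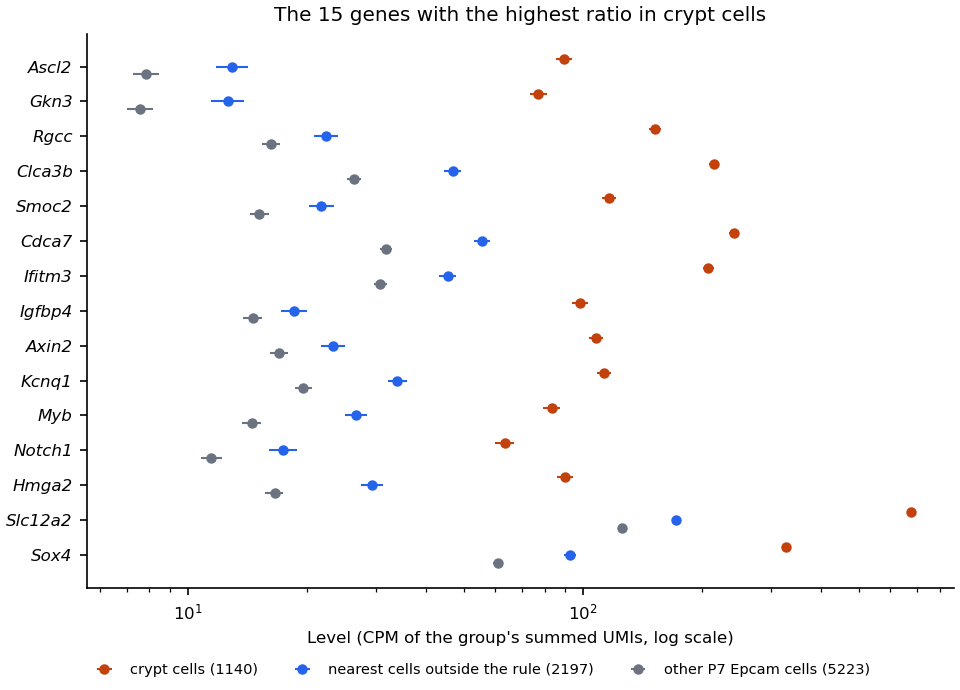
Levels of the 15 genes with the highest ratio of crypt cells over all other P7 epithelial cells, in CPM on a log axis, for crypt cells (orange), the nearest cells outside the rule (blue) and all other P7 epithelial cells (grey). Bars are exact Poisson intervals, and in each of the 15 genes the crypt cells are highest and all others lowest, as with Ascl2 at 89.6, 12.9 and 7.85 CPM.

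The other 8 of these 15 genes were of several kinds. The ion channel subunit Kcnq1 stood at 113 CPM in crypt cells, 33.9 CPM in the nearest cells and 19.6 CPM in all others, and the cotransporter Slc12a2, which loads chloride into secreting cells, at 678, 172 and 125 CPM. Slc12a2 was seen in 93.2% of thinned crypt cells and 32.7% of the thinned others. Transcription and chromatin genes were Myb at 83.4, 26.6 and 14.5 CPM, Sox4 at 326, 92.6 and 61.0 CPM and Hmga2 at 90.1, 29.3 and 16.6 CPM. The receptor Notch1 stood at 63.4, 17.46 and 11.5 CPM, and Ifitm3, a membrane protein induced by interferon, at 208, 45.5 and 30.7 CPM. Axin2 completes the 15. Fibroblasts held Ifitm3 at 1058 CPM, Igfbp4 at 620 CPM and Sox4 at 412 CPM, above the crypt cells, while they held Myb, Kcnq1 and Gkn3 at under 1 CPM each.

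Set against the nearest cells under the same limits, 10 of the highest 15 genes were the same, and 5 entered. Cym, the milk-clotting protease chymosin, stood at 2596 CPM (2573 to 2618) in crypt cells, 517 CPM in the nearest cells and 518 CPM in all others. Cdk6, a kinase that starts the cell cycle, stood at 88.4, 20.1 and 17.1 CPM, and Cnn3, a calponin that binds actin, at 57.0, 13.6 and 10.7 CPM. Cplx2, a complexin of vesicle release, stood at 51.9, 7.67 and 12.0 CPM and C2cd4b at 56.4, 14.9 and 12.2 CPM. Fibroblasts held Cnn3 at 248 CPM.

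The nearest cells were not uniform. Among them, 403 cells passed the Olfm4 limit but had 0 Lgr5 UMIs, 200 had Lgr5 but under 10 Olfm4 UMIs, and 1594 passed neither limit. Ascl2 stood at 89.6 CPM in crypt cells and at 40.0, 37.8 and 2.52 CPM in these 3 groups, and Axin2 at 108 CPM and at 53.7, 53.8 and 11.4 CPM. Slc12a2 stood at 678 CPM in crypt cells and at 439, 376 and 74.8 CPM. Both groups with 1 of the 2 markers thus lay between the crypt cells and the cells with neither. Gkn3 differed between the 2 middle groups, at 45.9 CPM in the Olfm4 cells without Lgr5 and 9.37 CPM in the Lgr5 cells with little Olfm4, and so did Cym, at 1426 and 217 CPM. The mitosis gene Mki67 was at about the same level in all 3 groups that carried a marker, at 268 CPM in crypt cells, 277 CPM in the Olfm4 cells and 274 CPM in the Lgr5 cells, against 102 CPM in the cells with neither.

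The crypt stem list held 34 counted genes beside the 2 of the rule. Of these, 25 were at least 2-fold higher and 2 at least 2-fold lower in crypt cells than in all other P7 epithelial cells, with a median log2 ratio of 1.69. Compared with the nearest cells, 22 of 33 were higher and 2 lower, with a median of 1.46. Sp5 had the highest ratio, at 33.9 CPM in crypt cells, 3.16 CPM in the nearest cells and 2.42 CPM in all others. Msi1, an RNA-binding protein of progenitors, stood at 22.3, 4.80 and 3.43 CPM. Genes used to mark slowly dividing or reserve cells differed among themselves. Hopx, a homeodomain protein, stood at 278, 101 and 85.8 CPM and Lrig1, which restrains EGF receptors, at 27.5, 8.87 and 7.61 CPM, but the Polycomb gene Bmi1 stood at 15.6, 10.1 and 9.69 CPM and the telomerase gene Tert at 8.25, 17.3 and 17.4 CPM. The lowest ratio was that of Sectm1b, at 6.30 CPM in crypt cells and 31.1 CPM in all others, while the nearest cells held 5.31 CPM.

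Of 21 counted genes of WNT signalling, 12 were at least 2-fold higher than in all other P7 epithelial cells and 0 lower, with a median log2 ratio of 1.05, and 10 of 21 were higher than in the nearest cells. Sp5, Ascl2, Sox9, Cd44 and Ephb2, which are among the 12, are also in the crypt stem list, so the counts of these lists overlap. The ubiquitin ligases Rnf43 and Znrf3, which remove WNT receptors, stood at 74.9 and 17.0 CPM in crypt cells against 19.6 and 5.22 CPM in all others. Myc stood at 36.9 CPM against 8.38 CPM, the cyclin gene Ccnd1 at 157 CPM against 43.7 CPM, the adhesion receptor Cd44 at 20.6 CPM against 4.53 CPM and Ephb2, which sorts cells along the crypt, at 61.3 CPM against 28.0 CPM. Within 2-fold, the signal carrier Ctnnb1 stood at 297 CPM against 424 CPM, Apc at 41.6 CPM against 48.0 CPM, the transcription factor Tcf7l2 at 58.1 CPM against 37.9 CPM and the co-receptor Lrp6 at 37.4 CPM against 29.3 CPM. Wnt3, the ligand made by Paneth cells, stood at 15.1 CPM in crypt cells, 5.20 CPM in the nearest cells and 7.50 CPM in all others.

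In the Notch pathway the receptor gene Notch1 and the target gene Hes1 were at least 2-fold higher, 2 of 10 counted genes. Hes1 stood at 132 CPM (127 to 137) in crypt cells, 71.4 CPM in the nearest cells and 50.8 CPM in all others. The ligand gene Dll1 stood at 12.1 CPM against 15.6 and 21.8 CPM, and the secretory factor Atoh1, which Hes1 holds down, at 2.92, 4.05 and 13.9 CPM, too low to be counted. The list's median log2 ratio was 0.24 against all others, and -0.03 where each cell's CPM was averaged. Of 10 counted genes of the BMP response, which opposes stem cells toward the villus, Id1 at 246 CPM and Id3 at 88.3 CPM in crypt cells were at least 2-fold higher than in all others, at 88.8 and 41.9 CPM. Id2 was lower, at 79.3 CPM against 216 CPM. In the EGF receptor pathway 3 of 10 counted genes were at least 2-fold higher than in all others and 0 lower. These were Lrig1, also in the crypt stem list, the ligand Hbegf at 243 CPM against 120 CPM, and Spred1 at 22.2 CPM against 10.9 CPM. Against the nearest cells 3 of 11 were higher, but Hbegf and Spred1 were under 2-fold, at log2 ratios of 0.84 and 0.55. The receptors Erbb2 and Erbb3 stood at 29.1 and 73.2 CPM in crypt cells and 27.5 and 74.1 CPM in all others.

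**Figure D2:**
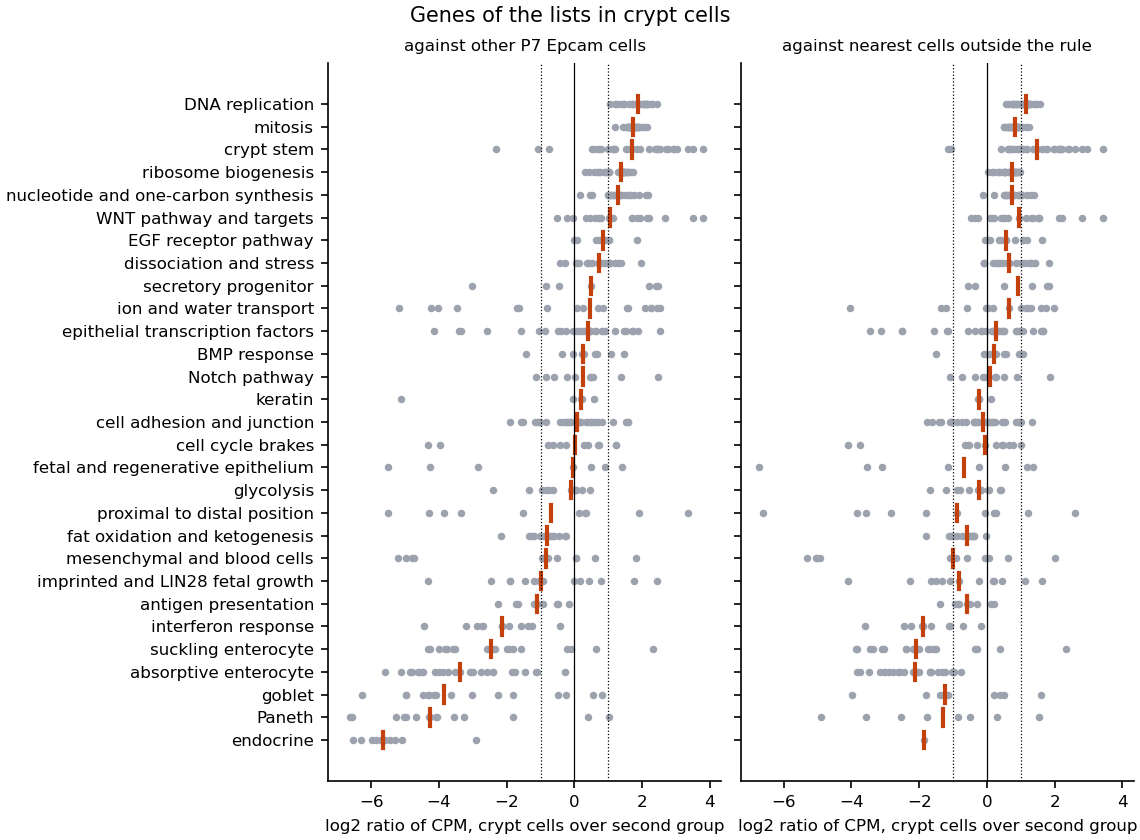
Log2 ratios of CPM for the counted genes of each list with at least 5 counted genes, crypt cells over all other P7 epithelial cells on the left and over the nearest cells outside the rule on the right. Grey points are genes, orange bars the list medians and dotted lines a 2-fold difference; the DNA replication list lies at 1.88 and 1.14 and the absorptive list at -3.38 and -2.13.

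Genes of dividing cells were higher against all others without exception among those counted. All 32 counted genes of DNA replication were at least 2-fold higher in crypt cells than in all other P7 epithelial cells, and so were all 34 of mitosis, with median log2 ratios of 1.88 and 1.72. Against the nearest cells the counts were 21 of 33 and 4 of 34, with medians of 1.14 and 0.83. Mcm3, of the replication helicase, stood at 106 CPM in crypt cells, 46.2 CPM in the nearest cells and 24.0 CPM in all others, and Pole, a replicative polymerase with the highest ratio of its list, at 21.5, 7.24 and 3.998 CPM. Top2a, which untangles DNA, stood at 331, 162 and 83.7 CPM, and Mki67 at 268, 151 and 77.8 CPM. Per cell, the 34 mitosis genes took 168, 1065 and 8142 CPM at the tenth percentile, the median and the ninetieth percentile of crypt cells, against 0, 175 and 2772 CPM in all others.

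Genes that make ribosomes and building blocks for RNA and DNA followed the same order. In ribosome biogenesis 21 of 30 genes were at least 2-fold higher than in all others and 0 lower, at a median log2 ratio of 1.36, while 0 of 30 passed 2-fold against the nearest cells, at a median of 0.73. The nucleolar genes Npm1 and Ncl stood at 2063 and 1582 CPM in crypt cells, 1080 and 887 CPM in the nearest cells and 686 and 561 CPM in all others. In nucleotide and one-carbon synthesis 19 of 23 genes were at least 2-fold higher than in all others, at a median of 1.28, with the purine enzymes Ppat at 51.4 CPM against 11.4 CPM and Impdh2 at 324 CPM against 85.7 CPM. Odc1 of polyamine synthesis stood at 136 CPM against 121 CPM.

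Of 12 counted brakes of the cell cycle, Rbl1 and Trp53 were at least 2-fold higher than in all others and Cdkn1c and Cdkn2b at least 2-fold lower. Cdkn1c, an imprinted inhibitor of cyclin-dependent kinases, stood at 24.9 CPM (22.7 to 27.2) in crypt cells, 429 CPM in the nearest cells and 498 CPM in all others, and was seen in 6.16%, 42.9% and 57.3% of thinned cells. Cdkn2b stood at 4.10, 55.5 and 63.8 CPM. The related inhibitors Cdkn1a and Cdkn1b stood at 137 and 37.9 CPM in crypt cells against 113 and 23.2 CPM in all others, and Trp53 stood at 152 CPM against 65.2 CPM. Fibroblasts held Cdkn1c at 284 CPM. Among the nearest cells Cdkn1c stood at 29.8 CPM in those with Olfm4 but no Lgr5, 139 CPM in those with Lgr5 and little Olfm4, and 574 CPM in those with neither.

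Genes of differentiated cells were far lower, and the shares of crypt cells with a UMI of Fabp1, Apoa1 and Defa24 were near those of fibroblasts. In the absorptive enterocyte list, which the rule touched through Apoa4, Rbp2 and Fabp2, 26 of 27 counted genes were at least 2-fold lower in crypt cells than in all others, with a median log2 ratio of -3.38. Fabp1, a fatty acid carrier, had the lowest ratio among named genes, at 126 CPM in crypt cells against 6130 CPM, and it stood at 109 CPM in fibroblasts. Fabp1 was seen in 35.8% of thinned crypt cells, 66.7% of the thinned others and 37.2% of thinned fibroblasts, and Apoa1, an apolipoprotein, in 58.8%, 86.3% and 60.1%. Both shares in crypt cells lie within the interval of the fibroblasts, but the level of Apoa1 was 419 CPM in crypt cells and 197 CPM in fibroblasts. Apoc2 stood at 135 CPM in crypt cells, 3928 CPM in all others and 99.3 CPM in fibroblasts, and Apoc3 at 110, 2734 and 73.2 CPM. Other low genes among the named ones were Paqr9 at 1.90 CPM against 83.7 CPM, Gda at 5.64 CPM against 189 CPM, Leap2 at 7.38 CPM against 224 CPM, the gluconeogenic G6pc at 2.97 CPM against 86.3 CPM and Pck1 at 21.1 CPM against 517 CPM, and the glucose carrier Slc2a2 at 3.74 CPM against 105 CPM. F10 and Chp2 stood at 2.72 and 3.13 CPM against 75.6 and 80.5 CPM. Mgam, a brush border sugar enzyme, was the 1 gene of the list under 2-fold, at 107 CPM against 129 CPM.

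Secretory genes followed the limits of the rule. Of 16 counted goblet genes 12 were at least 2-fold lower than in all others, of 15 Paneth genes 13, and of 10 endocrine genes 10. Fcgbp stood at 39.6 CPM against 1245 CPM and the hormone gene Sct at 9.27 CPM against 365 CPM. The Paneth gene Defa24, whose reads can be shared with near-identical alpha-defensin genes, stood at 117 CPM in crypt cells, 3800.3 CPM in all others and 89.99 CPM in fibroblasts. It was seen in 29.2% of thinned crypt cells and 28.0% of thinned fibroblasts. Against the nearest cells, which share these limits, the counts were 7 of 11, 4 of 8 and 1 of 1. Of 7 counted secretory progenitor genes 3 were at least 2-fold higher and 1 lower, with a median log2 ratio of 0.48, but -0.14 where each cell's CPM was averaged and -0.11 after thinning. Mex3a, an RNA-binding protein, stood at 20.7 CPM in crypt cells against 3.72 CPM and Stmn1 at 1101 CPM against 239 CPM, while the goblet factor Spdef stood at 2.72 CPM against 22.1 CPM. Foxa3 stood at 39.2 CPM in crypt cells, 13.0 CPM in the nearest cells and 22.2 CPM in all others.

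Against the nearest cells, the 15 lowest genes included some of the suckling gut. Cubn and Dab2, of the machinery that takes up milk proteins, stood at 7.38 and 22.6 CPM in crypt cells, 108 and 324 CPM in the nearest cells and 117 and 319 CPM in all others. Of 20 counted genes of the suckling enterocyte list 16 were at least 2-fold lower against either group. Cym was the 1 gene that was higher, and Cps1, Otc and Slc25a15 of the urea cycle lay within 2-fold, with Cps1 at 1108 CPM in crypt cells, 843 CPM in the nearest cells and 706 CPM in all others. Further low genes were Mgat4c at 4.20 CPM in crypt cells against 130 CPM in the nearest cells, the lectin Reg3b at 9.33 CPM against 279 CPM, the desaturase gene Scd2 at 7.69 CPM against 169 CPM and Guca2a, the peptide guanylin, at 131 CPM against 2074 CPM. Clec2h stood at 37.0 CPM against 616 CPM, Renbp at 27.2 CPM against 391 CPM, Bcl2l15 at 5.84 CPM against 96.6 CPM, Mep1b at 6.405 CPM against 92.9 CPM and the transcription factor gene Tfec at 6.15 CPM against 91.9 CPM. Sult6b2, Tmigd1 and Aph1c stood at 3.38, 3.69 and 4.25 CPM against 65.5, 66.6 and 67.6 CPM, and Cdkn1c is given above.

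In the interferon-response list 11 of 12 counted genes were at least 2-fold lower than in all others and 9 of 11 lower than in the nearest cells, with medians of -2.13 and -1.89. Ifitm3, which is not in that list, was higher in crypt cells, as given above. Ifit1, a sensor of viral RNA, stood at 9.58 CPM in crypt cells, 116 CPM in the nearest cells and 208 CPM in all others, and Stat2 at 4.46, 24.2 and 29.6 CPM. Of 9 counted genes of antigen presentation 5 were at least 2-fold lower than in all others, with H2-D1 at 191 CPM against 605 CPM. In fat oxidation 6 of 15 genes were at least 2-fold lower than in all others and 0 higher.

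Of 18 counted genes of ion and water transport 7 were at least 2-fold higher than in all others and 6 at least 2-fold lower. The 7 higher genes were Slc12a2 and Kcnq1, given above, the chloride channel Cftr at 120 CPM against 39.9 CPM, the channel partner Kcne3 at 109 CPM against 22.8 CPM, Kcnn4 at 62.5 CPM against 14.8 CPM, and the water channels Aqp1 at 94.0 CPM against 19.6 CPM and Aqp4 at 77.7 CPM against 26.6 CPM. The 6 lower genes were the sodium channel Scnn1a at 1.69 CPM against 18.8 CPM, the sodium exchanger Slc9a3 at 1.64 CPM against 26.8 CPM, the anion exchangers Slc26a3 at 34.2 CPM against 111 CPM and Slc26a6 at 1.84 CPM against 35.1 CPM, and the water channels Aqp8 at 0.77 CPM against 28.0 CPM and Aqp11 at 28.0 CPM against 86.3 CPM. Of 32 counted transcription factors 7 were higher and 6 lower than in all others. Sox9 stood at 181 CPM against 55.9 CPM, Ehf at 212 CPM against 64.0 CPM and Zfhx3 at 82.1 CPM against 22.1 CPM, while the intestinal identity genes Cdx2 and Hnf4a stood at 157 and 149 CPM against 162 and 127 CPM. Maf stood at 30.7 CPM against 313 CPM. Among adhesion genes the integrin subunit Itga6 stood at 187 CPM against 65.0 CPM and its partner Itgb4 at 22.8 CPM against 51.1 CPM. The glycolysis list lay near even, at a median log2 ratio of -0.09, with 0 of 13 genes higher and 2 lower. Adhesion genes were 4 higher and 7 lower of 32, at 0.09, or -0.04 where each cell's CPM was averaged. Of 5 keratin genes 0 were higher and 1 lower. Of 10 genes used to mark position along the gut 2 were higher, Gkn3 and Bex1, and 5 lower, with the ileal bile acid carrier Fabp6 at 2.87 CPM in crypt cells, 280 CPM in the nearest cells and 131 CPM in all others.

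Immediate-early genes respond to growth factors and to cell dissociation alike. Of 22 counted genes of the dissociation and stress list 7 were at least 2-fold higher than in all others and 0 lower, at a median log2 ratio of 0.72. Fos stood at 992 CPM against 408 CPM and Atf3 at 414 CPM against 180 CPM. The immediate-early gene Jun was within 2-fold, at 1097 CPM against 663 CPM, and the heat shock gene Hspa8 stood at 1289 CPM against 945 CPM. Of 14 counted imprinted and fetal growth genes 2 were higher than in all others, Hmga2 and Hmga1, and 7 lower, at a median log2 ratio of -0.98. Of 7 counted genes of fetal and regenerating epithelium 1 was higher and 3 lower, at -0.04, or 0.30 with at least 10 Epcam UMIs required. Mesenchymal and blood genes were 1 higher, Actg2, and 4 lower of 12. Only 1 tuft gene was counted, Ltc4s, at 3.13 CPM in crypt cells against 31.8 CPM. The part that tissue handling had in the levels of Hbegf, Id1 and Btg2, which lie in other lists, was not tested.

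The crypt cells differed among themselves more in some genes than in others. Among 5597 genes with a mean of at least 0.1 UMIs per thinned crypt cell, the Fano factor (the variance over the mean, near 1 for counting noise alone) had a median of 1.04. It was 1.25 for Lgr5, 1.24 for Ascl2 and 5.35 for Olfm4. The rule's minimums on Lgr5 and Olfm4 in part set the spread of these genes, while the rule did not read Ascl2. The highest values were those of smooth muscle genes, Actg2 at 64.0, Tpm2 at 47.1 and Acta2 at 34.2, and 50% of their UMIs came from 1, 2 and 3 cells. These are the cells beside which the sum of smooth muscle markers is read, and their part in other results was not tested. Tagln, Sparc, Dcn, Meg3, Col3a1 and Mylk, known from mesenchymal cells, were also among the 20 highest, at 5.42 to 10.8. Cym followed the smooth muscle genes, at 24.8, and differed from these in being widespread. It was seen in 75.2% of thinned crypt cells at a mean of 13.4 UMIs and a highest value of 205, and 50% of its UMIs came from 163 cells. Genes of differentiated epithelium made up another set: Apoa1 at 16.3, Gpx3 at 15.3, Spink4 at 14.8, Defa24 at 13.8, Guca2a at 13.6, Ctsl at 11.001, Tff3 at 7.78 and Lgmn at 5.33. For each, 50% of the UMIs came from 14 to 42 cells. Malat1, a nuclear RNA, had 6.82 and Fos 5.81.

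**Figure D3:**
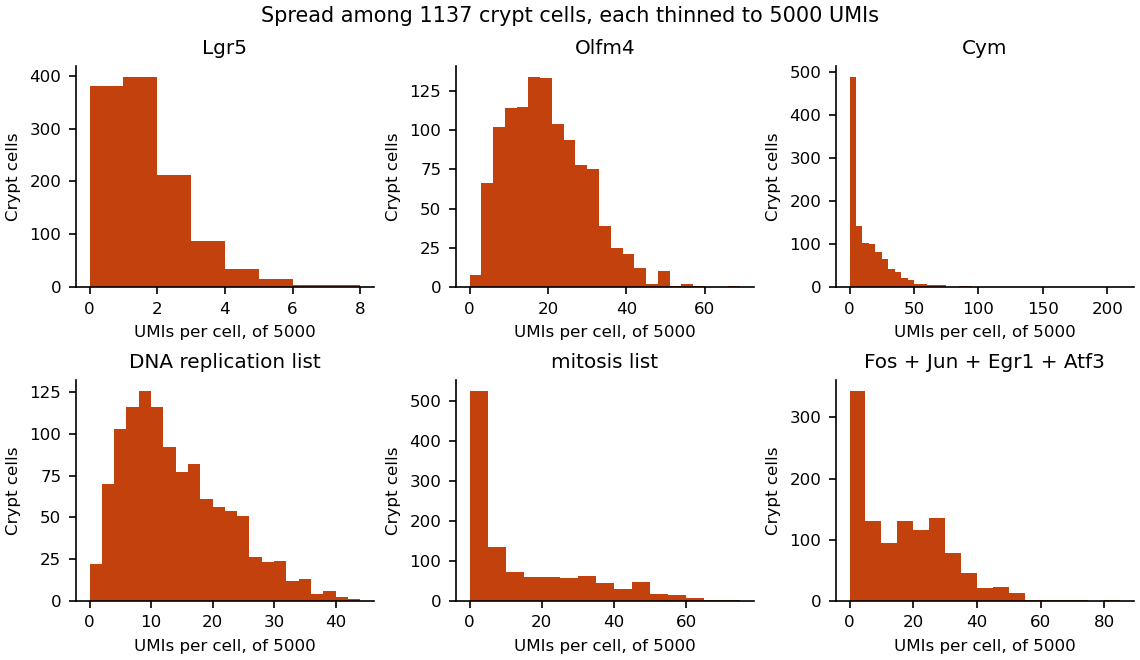
Number of crypt cells by UMIs per cell after thinning to 5000 UMIs, for Lgr5, Olfm4, Cym, the DNA replication list, the mitosis list and the sum of Fos, Jun, Egr1 and Atf3. The mitosis list and Cym have a peak near 0 with a long tail, and the replication list has a single broad peak. Olfm4 has a single broad peak too, but the rule cut its low end at 10 UMIs before thinning. Of 1137 cells, 527 held at most 4 mitosis UMIs.

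The crypt cells differed widely in cell division. By UMIs of the 34 mitosis genes in 5000, 527 cells held 0 to 4, 207 held 5 to 14 and 403 held 15 or more. Ascl2 stood at 85.4, 76.3 and 99.3 CPM in these 3 ranges, Axin2 at 111, 90.8 and 122 CPM and Smoc2 at 128, 107 and 126 CPM. Lgr5, which the rule read, stood at 280.5, 211.6 and 195.04 CPM and Olfm4 at 4402, 3526 and 3303 CPM. Cdca7 stood at 287, 220 and 187 CPM, Gkn3 at 93.4, 76.3 and 65.0 CPM and Sox9 at 224, 183 and 164 CPM. Lgr5, Olfm4, Cdca7, Gkn3 and Sox9 were lower with more mitosis UMIs, while Ascl2, Axin2 and Smoc2 had no such order. Mcm3, of the replication helicase, was highest in the middle range, at 117, 155 and 60.5 CPM. Ribosomal protein genes took 32.1%, 29.8% and 28.3% of the UMIs. The mitosis ranges were set after their spread had been seen, and all such ranges are ranges and not cell types.

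By Olfm4 UMIs in 5000, the crypt cells formed ranges of 214 cells with under 10, 406 with 10 to 19, 328 with 20 to 29 and 189 with 30 or more. Gkn3 stood at 31.8, 69.5, 98.2 and 127 CPM in this order, Igfbp4 at 57.9, 89.7, 124 and 138 CPM and Cdca7 at 178, 219.7, 264 and 307 CPM. Cym stood at 929, 2068, 3316 and 4874 CPM and Mki67 at 280, 274, 212 and 97.4 CPM. The absorptive enterocyte list stood at 4860, 3215, 2390 and 2395 CPM, highest in the lowest Olfm4 range, and its part in the other orders was not tested. Ascl2 stood at 72.9, 93.6, 97.6 and 80.4 CPM and Axin2 at 106, 109, 113 and 120 CPM, a narrower span. By Lgr5, 358 cells with 2 or more UMIs had Smoc2 at 154 CPM and Slc12a2 at 844 CPM, against 99.7 and 613 CPM in 381 cells with 0 after thinning. By the rule, all of these cells held Lgr5 before thinning. The mitosis list stood at 2395.5 CPM against 3215 CPM and the absorptive enterocyte list at 2538.5 CPM against 3672 CPM. Fos stood at 1219 CPM against 950 CPM. The part of these in the Smoc2 and Slc12a2 values was not tested. Dmbt1, a mucosal defence protein, stood at 90.5 CPM against 240 CPM, and Ascl2 at 84.9 CPM against 88.2 CPM.

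By the summed UMIs of Fos, Jun, Egr1 and Atf3, ranges that were also set after their spread had been seen, 344 crypt cells held 0 to 4, 356 held 5 to 19 and 437 held 20 or more. The vessel peptide gene Edn1 stood at 17.4, 158 and 426 CPM in these ranges and Hbegf at 26.7, 196 and 470 CPM. Sox4 stood at 241, 344 and 410 CPM and Cdkn1a at 53.5, 132 and 208 CPM, while Ascl2 stood at 85.5, 79.2 and 98.9 CPM and Axin2 at 112, 112 and 109 CPM.

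Cym, which had the highest ratio between the outer Olfm4 ranges, was used to range the cells in turn. After thinning, 282 cells held 0 Cym UMIs, 350 held 1 to 9 and 505 held 10 or more, ranges that were set after the spread of Cym had been seen. Onecut2, a transcription factor of the proximal intestine, stood at 17.0, 98.9 and 210 CPM in these ranges. Gkn3 stood at 16.3, 60.6 and 130 CPM, Ifitm3 at 66.0, 125 and 349 CPM, Dmbt1 at 34.8, 209 and 221 CPM, and Sfrp5, a secreted WNT binder, at 0, 12.6 and 30.1 CPM. Genes with the opposite order were Bex1 at 184, 83.4 and 42.8 CPM, its relative Bex4 at 77.3, 43.4 and 21.0 CPM, Mgam at 203, 97.1 and 65.3 CPM and Osr2 at 51.8, 38.3 and 23.4 CPM. Ascl2 stood at 87.2, 90.9 and 87.9 CPM, Axin2 at 128, 106 and 106 CPM, Lgr5 at 270, 209 and 239 CPM and the mitosis list at 2853, 3127 and 2617 CPM. Olfm4 stood at 2797, 3639 and 4591 CPM, Cdca7 at 193, 223 and 276 CPM and Rgcc at 108, 147 and 187 CPM. Gkn3, Cdca7 and Igfbp4 thus had the same order by Cym as by Olfm4. Ascl2 and the mitosis list had no steady order by Cym, and Axin2 was highest in the cells with 0 Cym UMIs. By Olfm4, Axin2 rose from 106 to 120 CPM, with overlapping intervals. The mitosis list stood at 3196, 3287, 2885 and 1352 CPM from the lowest to the highest Olfm4 range. Fibroblasts held Cym at 18.6 CPM and showed it in 6.47% of thinned cells, against 75.2% of thinned crypt cells. The part of position along the gut in these values was not tested, since the whole small intestine was taken and cells carry no position.

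**Figure D4:**
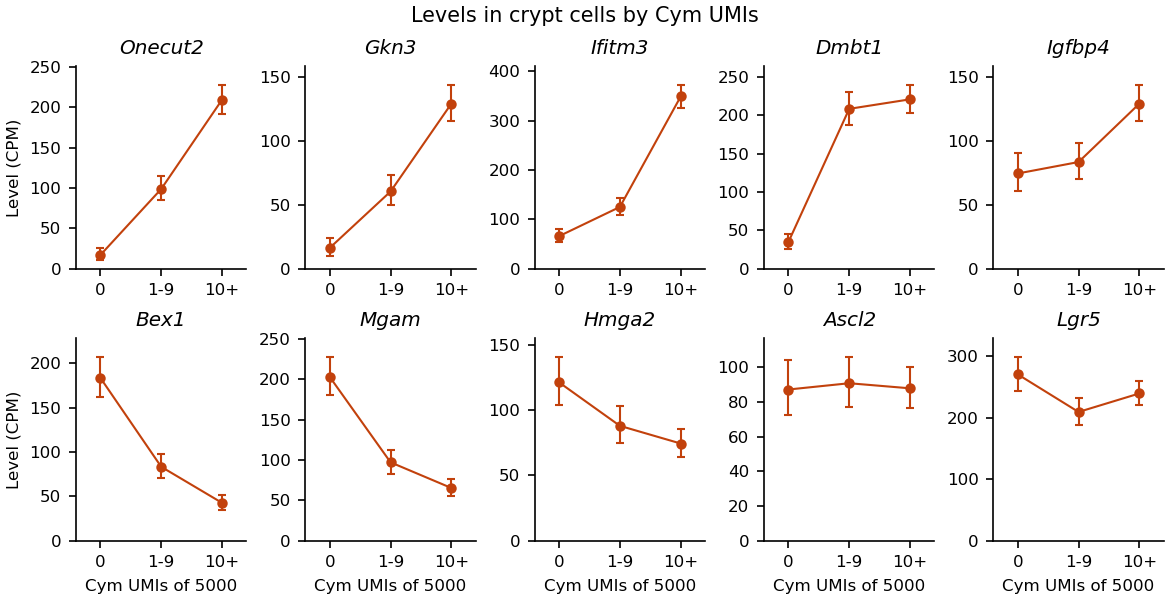
Levels in CPM (linear axes from 0, exact Poisson intervals) of 10 genes in crypt cells with 0, 1 to 9 and 10 or more Cym UMIs after thinning to 5000. Onecut2, Gkn3, Ifitm3, Dmbt1 and Igfbp4 are higher with more Cym, Bex1, Mgam and Hmga2 lower, and Ascl2 lies between 87.2 and 90.9 CPM in all 3 ranges.

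Set beside the embryonic libraries, the P7 crypt cells had higher levels of the 7 crypt genes named first below than epithelial cells of either embryonic library. The rule found 0 cells at E15.5 and 38 of 1677 epithelial cells at E17.5. For a like comparison, epithelial cells that met all limits but those on Olfm4 and Lgr5, 1364 at E15.5, 1190 at E17.5 and 3337 at P7, are given in that order, with the P7 crypt cells, which are part of the 3337, last. Their median depths were 21469.5, 17170 and 15310 UMIs at E15.5, E17.5 and P7, so a limit in UMIs is not equal across stages. Each stage is 1 library, so stage and library cannot be told apart. Gkn3 stood at 0.74, 0.85 and 35.8 CPM in these cells and 77.1 CPM in crypt cells, and Sp5 at 0.32, 0.28, 14.2 and 33.9 CPM. Ascl2 stood at 12.3, 11.3, 40.5 and 89.6 CPM, Axin2 at 12.5, 11.8, 53.7 and 108 CPM and Smoc2 at 11.6, 23.4, 55.8 and 116 CPM. Kcnq1 stood at 3.11, 13.5, 62.4 and 113 CPM and Slc12a2 at 50.3, 150, 354 and 678 CPM. Mki67, a gene of dividing cells, stood at 204, 226, 193 and 268 CPM.

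Notch1 stood at 22.9, 19.3, 34.0 and 63.4 CPM in the same order and Hes1 at 92.5, 105, 93.1 and 132 CPM. Of the fetal growth genes, H19, Igf2 and Dlk1 were lowest in the crypt cells. H19 stood at 2705, 1076, 83.6 and 35.1 CPM, Igf2 at 546, 192, 27.1 and 7.89 CPM, and Dlk1 at 46.3, 21.8, 0.64 and 0.31 CPM. Hmga2, a chromatin gene of fetal progenitors that is held down by let-7, stood at 186, 102, 51.1 and 90.1 CPM, so that the P7 crypt cells held more of it than the P7 cells inside the limits. Igf2bp1, another let-7 target, stood at 99.6, 44.6, 9.09 and 9.74 CPM. The 38 cells of E17.5 that met the whole rule, with 811816 UMIs in all, had Ascl2 at 24.6 CPM, Slc12a2 at 341 CPM, Gkn3 at 2.46 CPM, Sp5 at 1.23 CPM, H19 at 216 CPM and Mki67 at 297 CPM. At equal selection the P7 cells thus had higher point values of Ascl2, Slc12a2, Gkn3 and Sp5 and a lower one of H19.

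**Figure D5:**
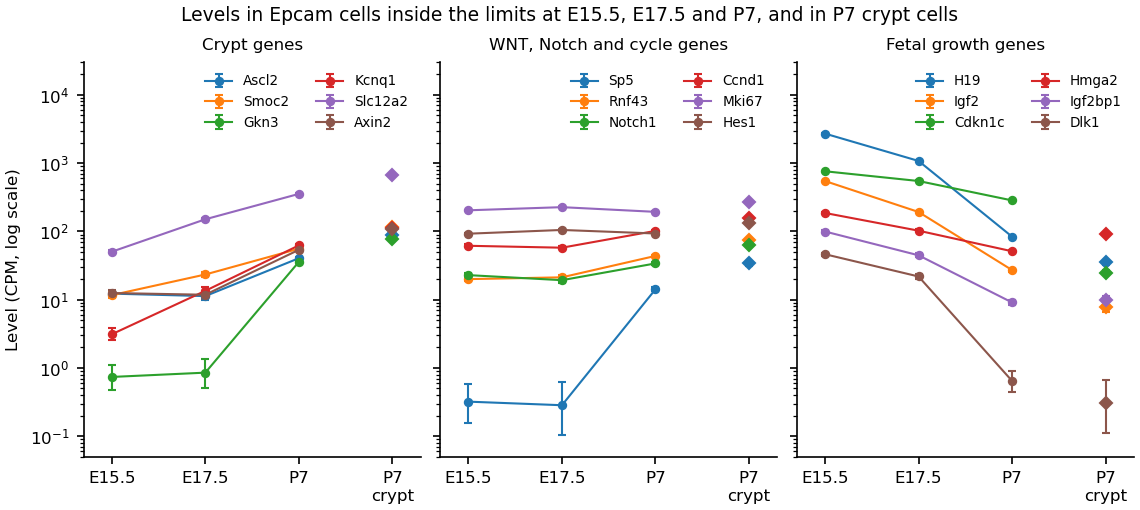
Levels in CPM on a log axis, with exact Poisson intervals, of 18 genes in epithelial cells inside the limits at E15.5, E17.5 and P7 (circles joined by lines) and in P7 crypt cells (diamonds). Gkn3 and Sp5 lie under 1 CPM at both embryonic stages and at 77.1 and 33.9 CPM in crypt cells, and H19 lies at 2705 CPM at E15.5 and 35.1 CPM in crypt cells.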

How the data were processed

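Each file, as deposited, is a matrix of raw UMI counts by gene and cell, not normalized, as the values show; there are 3 libraries of 8447, 11598 and 8391 cells and 93501273, 94023160 and 116038115 UMIs. The submitters' processing notes name Cell Ranger 7.2.0 and the builds mm10 and GRCm38. The 3 barcode lists hold the same 8447 names, which do not match the cell numbers of 2 libraries, so cells were taken by column and cells shared between libraries could not be counted. No cell was removed. Scrublet (scanpy 1.11.5, expected rate 6%, seed 0) marked 389 P7 cells (4.64%), which an alternative leaves out.

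UMIs were summed per group of cells and scaled to CPM with Python 3.11.15, numpy 2.4.6 and scipy 1.17.1. Levels carry exact Poisson, shares Clopper-Pearson and ratios exact conditional binomial intervals at 95%, for counting error only. In ratios, UMIs under 3 were set to 3. A gene was counted at a mean of 10 CPM over both groups and called at 2-fold; the procedure was tested on simulated data. The members, the 30 gene lists and the ranges were chosen with earlier results of these data known. Named genes are the 15 highest and 15 lowest ratios against each second group, at 50 CPM or more in the higher group and with a UMI in at least 25% of its cells, leaving out genes of the rule, mitochondrial and ribosomal protein genes and unnamed clones. To these are added the 20 highest Fano factors among thinned crypt cells and examples from each list, some of them chosen after their values were seen. Of the listed symbols, 3 were not found in the files. Promoter windows come from RefSeq (GRCm38.p6). Some results are not reported here.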

Additional observations from a re-analysis of the deposited data

How the results depend on the processing

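Without a filter on low values, 5272 genes were at least 2-fold higher and 2926 lower in crypt cells than in the other P7 epithelial cells, and 1792 higher and 2231 lower than in the nearest cells. The floor on UMIs in ratios enters these counts, since the groups differ in total UMIs. Slc14a1, at 0 CPM in each group, had log2 ratios of 2.14 against the others and 0.84 against the nearest cells. The 5272 are therefore not a count of genes with higher levels, and the part of the floor in them was not tested. With a mean of at least 50 CPM the counts were 311 and 520, and 84 and 361. The median log2 ratio of the crypt stem list, 1.69, was 1.59 with each cell's CPM averaged, 1.625 after thinning to 5000 UMIs, 1.64 with at least 2 Lgr5 UMIs, 1.76 with at least 10 Epcam UMIs and 1.46 against the nearest cells. With at least 2 Lgr5 UMIs the DNA replication list stood at 1.71 and the mitosis list at 1.53. Against the nearest cells they stood at 1.14 and 0.83, and the absorptive list at -2.13. Against all other P7 epithelial cells, the 15 highest and 15 lowest named genes and Cym, Hes1 and Hopx, 33 in all, stayed at least 2-fold the same way in their 264 values under the 8 alternatives that keep this second group, with a largest move of 1.00 on the log2 scale. The 15 highest and 15 lowest were chosen for extreme ratios, which a move of that size could not bring under 2-fold. Their values say little of genes near that limit. The log2 ratio of Fabp1 against the nearest cells was -2.17, and that of Defa24 -0.85, under 2-fold. Single genes of the comparison with the nearest cells were not recomputed. Of 233 values of the other 26 lists, 71 moved beyond the counting interval and 15 had the other sign, in the Notch, brake, secretory progenitor, fetal, adhesion and keratin lists. The causes of these moves were not tested. No paired analysis was possible because each stage is 1 library. For the same reason depth limits counting error alone, and the spread between animals is unknown.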
